A study of Mus musculus with 44 samples.

Results

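Control ovarian follicles that had received hCG (human chorionic gonadotropin, the hormone that stands in for the luteinizing hormone surge) were described here through all 12 of their libraries, out of 44 in the series. The libraries were taken by their labels as the ovulation-window controls, and no measured value entered that choice. The follicles came from wild-type CD-1 mice, an outbred laboratory stock. The series also holds hCG-treated follicles given PFNA (perfluorononanoic acid), and DMSO controls and PFNA follicles of a maturation window, none of which entered a fit. The hormone dose, the hours since hCG, the age of the mice, the vehicle of these controls, and whether a library holds a single follicle or a pool are not in the labels. They do not say that the 12 libraries came from separate animals or cultures, so every p-value below measures only the spread between these samples.

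Before ovulation the surge acts on the outer granulosa cells of the follicle, which release the EGF-like growth factors amphiregulin, epiregulin and betacellulin. These act in turn on the cells around the oocyte, which make prostaglandins and a hyaluronan-rich matrix. The wall is loosened by proteases, the progesterone receptor is switched on, and granulosa cells begin to turn into the progesterone-making cells of the corpus luteum.

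Library totals ran from 11961105 estimated counts in replicate 4 to 16045751 in replicate 5, and 15056 to 15665 of 18274 listed genes had a count. No library was a copy of another: the smallest chi-square per degree of freedom over 66 pairs was 7.54. At these totals a gene at 10 CPM (the counts-per-million scale) carried a counting error of about 0.121 on the log2 scale. Several libraries stood apart before any gene was tested. Replicates 3, 4, 5 and 8 had the highest Ptgs2, replicates 4 and 5 the highest Cyp17a1 and Insl3, replicate 9 the lowest markers of theca, stroma and vessels, and replicates 2 and 7 the highest oocyte genes. On the first principal component (31.7% of the variance over 8650 genes) replicates 4, 5, 3 and 8 scored 27.6, 17.7, 16.8 and 7 and the other 8 scored below 0. The second component (20.7%) set replicate 9 apart, at -28.4.

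The transcript pool was wide, and was led by granulosa cell and ovulatory genes. A level of at least 1 CPM was reached in all 12 libraries by 11142 genes, a mean of at least 100 CPM by 2492 and a mean of at least 1000 CPM by 90. The 10 most abundant genes held 5.62% of all counts and the 100 most abundant 18.9%. By counts, versican (Vcan), a large proteoglycan of the expanding matrix, came first at 9027 ± 2888 CPM (SD, n = 12). Next were Inha, the inhibin alpha subunit, at 7041 ± 597 CPM, and the translation factor Eef1a1 at 6843 ± 300.2 CPM. Inhba, the inhibin and activin beta-A subunit, followed at 6363 ± 1121 CPM, and Ptgs2 at 5324 ± 1553 CPM. Long transcripts gather more counts, so the order between genes is given per kilobase of merged exons.

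Per length, Inha led at 4774 ± 405 CPM per kilobase (SD, n = 12), and Vcan fell out of the first 20. Eef1a1 had a level of 2745 CPM per kilobase and Ephx2, soluble epoxide hydrolase, one of 1880. Sult1e1, the sulfotransferase that inactivates estrogens, had a level of 1708 ± 489 CPM per kilobase and ranged widely between libraries. Its counts were 1327 CPM at the lowest (replicate 12), 1889 at the median and 3298 at the highest (replicate 3). Ptgs2 ranked 6 of 17842 genes with a length, at 1162 ± 339 CPM per kilobase. The first 20 also held Hsd3b1, which makes progesterone from pregnenolone, at 949.8, the plasminogen activator Plau at 839.7 and Tnfaip6 at 741.5 CPM per kilobase. Of these 20 named genes, 11 were also among the first 20 by counts. The 98 genes of ribosomal proteins together held between 2.53% and 2.90% of the counts.

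**Figure D1:**
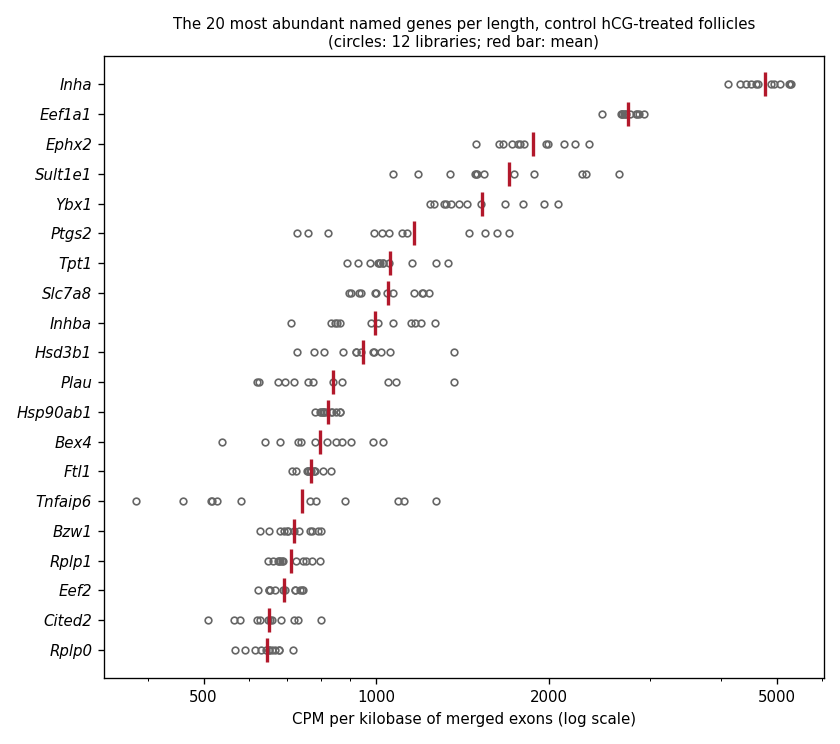
Level per kilobase of merged exons (horizontal, log scale) of the 20 most abundant named genes (rows); circles are the 12 control libraries and red bars their means. Inha stands first at 4774 CPM per kilobase, and Ptgs2, Tnfaip6 and Sult1e1 spread more widely between libraries than Eef1a1 or Hsp90ab1.

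The 4 genes that mark the ovulatory response were abundant in every library, and their levels ranged from 2.34-fold to 3.76-fold between libraries. Ptgs2 (chr1:150100031-150108227, GRCm38), the inducible cyclooxygenase of prostaglandin synthesis, had 3336 CPM at the lowest, 4945 at the median and 7814 at the highest. Replicates 5, 3, 8 and 4 held 7814, 7433, 7082 and 6639 CPM, and no other library exceeded the 5191 CPM of replicate 1. Tnfaip6 (chr2:52038009-52056686), which links heavy chains to hyaluronan in the matrix, had 653.1 CPM at the lowest, 1153 at the median and 2172 at the highest. The same 4 libraries, 5, 8, 3 and 4, were above the rest, with 1506 CPM in replicate 4 against 1341 in replicate 1. Replicates 11 and 12 had the lowest Tnfaip6, and replicates 11, 6 and 12 the lowest Ptgs2.

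Ereg, the ligand epiregulin (chr5:91074622-91093646), ranged from 1399 CPM in replicate 6 over a median of 2173 to 3705 CPM in replicate 4. Replicates 4, 8, 3 and 5 were again the highest 4, although the step from replicate 5 (2649 CPM) to replicate 1 (2403 CPM) was small. Star (chr8:25806555-25815982), which carries cholesterol into mitochondria for steroid synthesis, ranged from 484.6 CPM in replicate 12 over a median of 715.8 to 1824 in replicate 4. Here replicates 4, 5 and 3 stood above the others at 1824, 1350 and 961.4 CPM, while replicate 8 had 718 CPM, below the 748 of replicate 7 and the 740.4 of replicate 6. After TMM normalization replicate 8, at 746.7 CPM, was above replicate 7, at 735.5, so that the 4 libraries were again the highest. Per kilobase the order of the 4 genes was Ptgs2, Tnfaip6 at 741.5 ± 294, Ereg at 570.1 and Star at 202.8 CPM.

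Promoters of the 2 of these 4 genes that RefSeq's table matched (GRCm38.p6, 250 bases before to 50 after the start) are shown because both genes were high in the same 4 libraries. Capitals mark matches to 5 short motifs searched on both strands: the CRE half-site TGACG, the TATA box TATAAA, the E-box CACGTG, the EGR motif GCGGGGGCG or GCGTGGGCG, and the AP-1 motif TGACTCA. Ptgs2 lies on the plus strand at chr1:150099781-150100080 and Tnfaip6 on the plus strand at chr2:52037863-52038162.
Ptgs2: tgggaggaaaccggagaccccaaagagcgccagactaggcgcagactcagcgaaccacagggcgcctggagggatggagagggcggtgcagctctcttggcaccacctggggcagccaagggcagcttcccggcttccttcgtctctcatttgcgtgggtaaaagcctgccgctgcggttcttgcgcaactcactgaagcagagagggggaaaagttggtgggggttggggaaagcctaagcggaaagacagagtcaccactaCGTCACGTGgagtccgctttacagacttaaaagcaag
Tnfaip6: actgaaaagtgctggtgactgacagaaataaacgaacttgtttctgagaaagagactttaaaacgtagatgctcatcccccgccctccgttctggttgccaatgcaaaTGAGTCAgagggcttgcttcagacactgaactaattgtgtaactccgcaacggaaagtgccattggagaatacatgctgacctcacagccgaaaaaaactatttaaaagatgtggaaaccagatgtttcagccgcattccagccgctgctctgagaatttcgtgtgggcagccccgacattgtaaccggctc
The Ptgs2 window held a CRE half-site (written CGTCA on this strand) that shares bases with an E-box. The Tnfaip6 window held the AP-1 motif, written TGAGTCA, and none of the letters of the other 4 motifs. Of all 32851 promoters of this length, 20.8% held the CRE half-site, 7.15% the E-box and 5.202% the AP-1 motif, so these matches describe the windows and show no binding.

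Other members of the EGF-like list, ligands first, followed the same libraries to different degrees. Areg, amphiregulin, had 131.7 CPM at the lowest (replicate 6), 257.5 at the median and 499.7 at the highest (replicate 4), with replicates 4, 5, 8 and 3 above the rest. Btc, betacellulin, was steadier, from 1882 CPM in replicate 12 over a median of 2488 to 3007 in replicate 3. Per kilobase, Ereg and Btc lay close together (570.1 and 543.8 CPM) and Areg lower at 221.3. The receptor Egfr was low at 66.0 CPM on average, and the protease Adam17, which frees the ligands from the membrane, at 181.9 CPM.

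Among prostaglandin genes, only Ptgs2 was in the first 100 per length. Pla2g4a, the phospholipase that supplies arachidonic acid, had 359.4 CPM, the prostaglandin E synthase Ptges 59.2 CPM, and the receptors Ptger4 and Ptger2 had 39.8 and 12.97 CPM. In the matrix list, the pentraxin Ptx3 had 1068 CPM and the hyaluronan synthase Has2 301.6 CPM, each with less than 2-fold between the extreme libraries, 1.82 and 1.88. The hyaluronan receptor Cd44 ranged 4.06-fold, from 145 CPM in replicate 6 to 588.2 in replicate 8. The progesterone receptor Pgr had 468.1 CPM at the lowest (replicate 12), 768.3 at the median and 1368 at the highest (replicate 4). Il6, a cytokine of the expanding cumulus, ranged 5.70-fold, from 30.2 CPM in replicate 6 to 172.2 in replicate 4.

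Genes that vary together between control libraries were sought with edgeR's quasi-likelihood test of each gene's slope on the log2 level of a marker. A slope of 1 means that a gene was higher by as many log2 units as the marker. Of 11496 genes tested, 1889 (16.4%) had a slope on Ptgs2 that passed an adjusted p of 0.05, 1112 positive (9.67%) and 777 negative (6.76%). On Ereg 2175 passed (18.9%; 10.9% positive, 8.05% negative). On Star 2198 passed (19.1%; 10.4% positive, 8.72% negative). On Tnfaip6 801 passed (6.97%; 4.45% positive, 2.51% negative). The 4 fits use the same 12 libraries and are not independent of each other.

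The number of calls depended on the libraries used. Without replicates 3, 4, 5 and 8, which were picked by their Ptgs2, fewer libraries and a narrower range of the markers remain. Within those 8 libraries edgeR called 0 of 11738 genes on any of the 4 markers, while 494, 537, 425 and 911 genes had an unadjusted p under 0.05 for Ptgs2, Ereg, Tnfaip6 and Star. Of the 50 slopes fitted for the genes of smallest p and between the markers, 48 kept their sign there. The genes of smallest p were picked in fits that include these 8 libraries, so the kept signs are no independent check. Leaving out replicate 12, which had low levels of all 4 markers, cut the Ptgs2 count to 1049. The Tnfaip6 count hung on single libraries: it was 1 without replicate 3 and 3 without replicate 12. The balance of directions hung on the scaling. The 4 libraries had the lowest TMM factors (0.902, 0.923, 0.954 and 0.962 in replicates 4, 3, 5 and 8). With library totals alone, the positive share of the calls was 17% for Ptgs2, 15.4% for Ereg, 18.9% for Tnfaip6 and 18% for Star, against 58.9%, 57.5%, 63.9% and 54.4% after TMM normalization. The median slope of all genes on Ptgs2 moved from -0.02 to -0.182. The direction of each call named below was the same under both scalings. With library totals alone the slopes on Ptgs2 of Il6, Hapln1, Runx1, Cebpb, Adamts1, Scarb1 and Star missed the threshold, at adjusted p between 0.051 (Il6) and 0.12 (Cebpb).

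The markers rose together. On Ptgs2, Tnfaip6 had a slope of 1.19 (SE 0.123, adjusted p = 0.00044) and Ereg one of 0.90 (SE 0.117, adjusted p = 0.00074). The slope of Star on Ptgs2 was 0.942 (adjusted p = 0.028), and its adjusted p was over 0.05 without replicate 5 or 12 and with library totals alone. Star and Tnfaip6 did not pass against each other (adjusted p = 0.082 and 0.066). Within the 8 other libraries the slope of Tnfaip6 on Ptgs2 was 0.997 and that of Ereg 0.77, both with an adjusted p of 0.99. There the slope of Star on Ptgs2 was 0.0494.

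**Figure D2:**
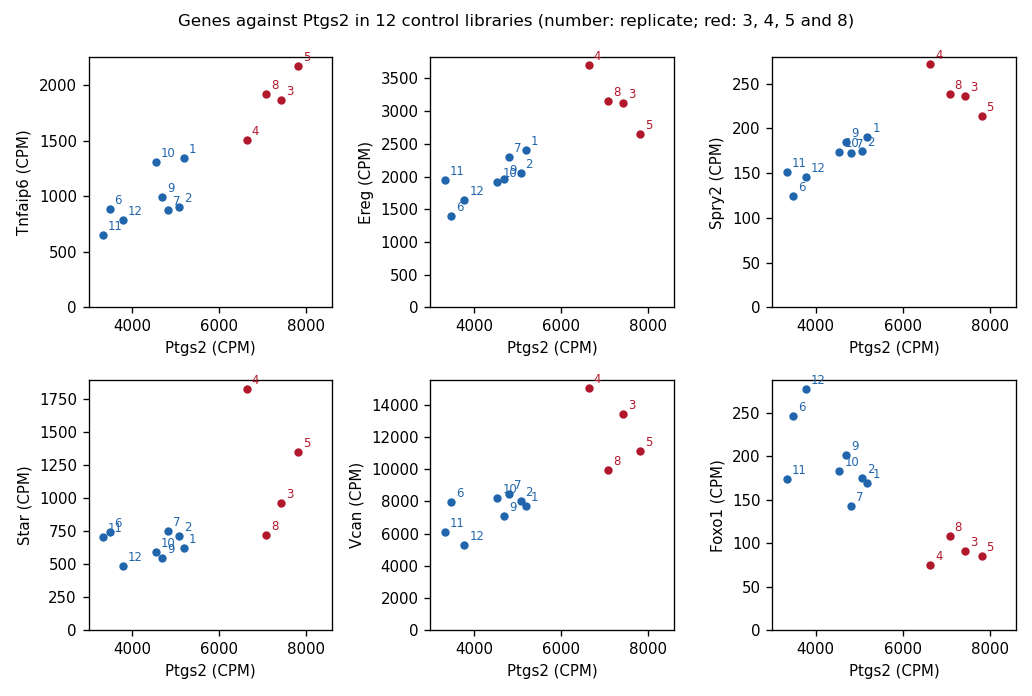
Levels (CPM, linear axes) of 6 genes against Ptgs2 in the 12 control libraries, numbered by replicate, with replicates 3, 4, 5 and 8 in red. The 4 red libraries have 6639 CPM of Ptgs2 or more and the others 5191 or less; Foxo1 runs the opposite way, and Star is high mainly in replicates 4, 5 and 3.

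The genes of smallest p on Ptgs2 had several roles. With Tnfaip6, the positive ones were Arl5b, a small GTPase (slope 0.639, SE 0.0563, adjusted p = 7.5e-05), Spry2, an inhibitor of growth factor signalling (0.766), Lrig3 (0.557) and Tchhl1 (1.62). Spry2 had 124 CPM at the lowest (replicate 6), 180.1 at the median and 272 at the highest (replicate 4). Its highest 4 libraries were replicates 4, 8, 3 and 5, as in 1.37% of all genes tested on CPM of the total. The negative ones were Synpo (-0.943), which binds actin, Filip1l (-1.55), the granulosa cell transcription factor Gata4 (-0.671), Hmga2 (-0.968) and Lpin3 (-0.683). Gata4 ran from 82.8 CPM in replicate 4 over a median of 141 to 219.5 in replicate 12. Replicates 4, 3, 5 and 8 were its lowest 4, as in 9.43% of all genes tested on CPM of the total.

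On Ereg, Spry2 had the smallest p of all 4 fits (slope 0.806, SE 0.0569, adjusted p = 3.5e-06). It was followed by Dusp10, a phosphatase that turns off stress kinases (0.985), Epgn, another EGF-like ligand (1.67), Btg1 (0.69) and Ier5 (0.903). Epgn (chr5:91027464-91035215) lies near Ereg on chromosome 5 and ranged from 10.9 CPM in replicate 12 to 74.1 in replicate 4. Foxo1, a transcription factor of growing granulosa cells, led the negative side (-1.03, SE 0.109, adjusted p = 0.00014), with Pold1 (-0.872), Synpo (-0.959), Arhgef28 (-1.22) and Txnip (-0.995). Foxo1 had 75.2 CPM at the lowest (replicate 4), 171.5 at the median and 277.1 at the highest (replicate 12). Replicates 4, 5, 3 and 8 were the lowest 4, without overlap with the others. A share of 9.43% of all 11497 genes tested did the same on CPM of the total.

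The 4 fits shared 538 called genes, all with the same sign in each. In the fit on Star the positive genes of smallest p were Rassf8 (slope 0.849, SE 0.0669, adjusted p = 1.8e-05), Kctd12 (0.833), Arhgap32 (0.496), Sfrp4, a secreted inhibitor of Wnt signalling (0.736), and Pdp1 (0.555). Rassf8 was 347.5, 257.6 and 238.1 CPM in replicates 4, 5 and 3 and at most 176.5 in the others. Rnf187 (-0.571), Parp1 (-0.595), Cxxc5 (-0.996), Adamts7 (-0.693) and the actin bundler Fscn1 (-0.506) had negative slopes. On Tnfaip6 the genes of smallest p were Ptgs2 (0.727, adjusted p = 0.002), Atp1b1 (0.574), Arl5b (0.467), Phex (0.41) and Cited2 (0.352) on the positive side. Rflnb (-0.673), Stat5a (-0.593), Vps13c (-0.469), Dlg3 (-0.495) and Txnip (-0.742) stood on the negative side. All of these genes but Ptgs2 lost their call without replicate 3, and all but Ptgs2, Atp1b1 and Arl5b also without replicate 12.

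By group, the list of immediate-early genes, which respond first to growth factor signals, had the most calls. The list also holds Spry2, an inhibitor of growth factor signalling, and Spry4. Of 15 tested, 11 rose with Ptgs2 and 0 fell, with a median slope of 0.56 against -0.02 over all genes, beside the 9.67% of all genes that rose. With library totals alone 7 rose and 1 fell, beside 3.5% and 17.1% of all genes. Junb had a slope of 0.68 (adjusted p = 0.00082), Egr1 one of 0.68 (adjusted p = 0.0013) and Ier3 one of 0.48 (adjusted p = 0.00069). Junb ran from 255 CPM in replicate 6 over a median of 403.1 to 546.4 in replicate 5. Jun (slope -0.12, adjusted p = 0.23) and Spry4 (0.02, adjusted p = 0.94) did not pass, though Jun fell with library totals alone (adjusted p = 0.024). The same list had 10, 8 and 12 positive calls on Ereg, Tnfaip6 and Star, beside 10.9%, 4.45% and 10.4% of all genes.

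Of the progesterone receptor list, 5 of 9 tested members rose with Ptgs2 and 0 fell (median slope 0.83), beside 9.67% of all genes that rose. With library totals alone 4 rose, beside 3.5% of all genes. Pgr had a slope of 1.13 (adjusted p = 0.00094), the kinase Prkg2 0.96 (adjusted p = 0.0025), Snap25, a protein of vesicle release, 1.61 (adjusted p = 0.0085), Pparg 0.83 (adjusted p = 0.01) and Il6 1.05 (adjusted p = 0.031). Hif1a, among the more abundant at 1207 CPM, had a slope of 0.24 (adjusted p = 0.12). Edn2, endothelin 2, averaged 1.65 CPM and was left out by the filter on low counts. In the matrix list 3 of 6 rose, beside 9.67% of all genes: Vcan (0.92), Tnfaip6 and Hapln1 (0.58, adjusted p = 0.046). Under library totals 2 of the 6 rose, beside 3.5% of all genes. The slopes of Has2 and Ptx3 were 0.02 and 0.06 (adjusted p = 0.95 and 0.82).

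Among EGF-like genes, 3 of 9 rose with Ptgs2, beside 9.67% of all genes. They were Areg (1.18, adjusted p = 0.0014), Ereg and Btc (0.49, adjusted p = 0.0028). Under library totals 3 rose and 1 fell, beside 3.5% and 17.1% of all genes. Within the prostaglandin list 2 of 11 rose, beside 9.67% of all genes. They were the receptor Ptger2 (0.94, adjusted p = 0.0056) and the constitutive cyclooxygenase Ptgs1 (1.74, adjusted p = 0.019). Ptgs1 was low, with a median of 4.64 CPM, and had 16.55 CPM in replicate 4 and 9.09 in replicate 8, the next highest. Ptges had a slope of -0.51 (adjusted p = 0.067). Ptges and Abcc4 fell with both Ereg (Ptges -0.59, adjusted p = 0.028) and Star (Ptges -0.49, adjusted p = 0.012). On Ereg 3 of 12 members rose and 2 fell, beside 10.9% and 8.05% of all genes. On Star 4 of 12 rose and 2 fell, beside 10.4% and 8.72%. Under library totals 2 of 11 rose with Ptgs2 and 1 fell, beside 3.5% and 17.1% of all genes. Of 10 luteinization factors 5 rose with Ptgs2 after TMM normalization, beside 9.67% of all genes. Among them were Runx1 at 0.30 (adjusted p = 0.0079), Cebpb at 0.31 (adjusted p = 0.016) and Cebpa at 0.49 (adjusted p = 0.011). With library totals alone, 2 of the 10 rose, beside 3.5% of all genes. Runx1 was both abundant, at 1329 CPM, and steady, at 1172 to 1519 CPM.

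Proteases that break down the follicle wall had 4 positive calls and 1 negative among 16, beside 9.67% and 6.76% of all genes. Scaled by library totals alone, 2 were positive and 1 negative, beside 3.5% and 17.1% of all genes. Plau had a slope on Ptgs2 of 0.72 (adjusted p = 0.0051), the lysosomal protease Ctsl 0.66 (adjusted p = 0.019) and Adamts1, which cleaves versican, 0.59 (adjusted p = 0.027). Plau was 3242, 2562 and 2483 CPM in replicates 4, 3 and 5 and at most 2060 in the others. Ctsl was highest in replicates 5 and 4 at 3610 and 3294 CPM, over a median of 1992. Within the 8 libraries other than replicates 3, 4, 5 and 8, the slope of Ctsl on Ptgs2 was -0.15. There those of Plau and Adamts1 were 0.3 and 0.41, each of these slopes with an adjusted p of 0.99. Adamts4, of the same family, had 22.0 CPM in replicate 9 against 106.1 to 300.4 in the others (slope on Ptgs2 0.28, adjusted p = 0.75). On Star, 7 of the 16 rose, beside 10.4% of all genes, with an adjusted p of 0.00037 for Adamts1 and 0.00066 for Adamts9. With library totals alone 5 rose, beside 4.46% of all genes.

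Of the steroid genes, Cyp11a1, which makes pregnenolone, ran from 536.2 CPM in replicate 9 over a median of 721.2 to 997.1 in replicate 5. Its slope on Star was 0.50 (adjusted p = 0.00066) and that on Ptgs2 0.44 (adjusted p = 0.057). Scarb1, the receptor that takes up cholesterol from lipoproteins, ran from 1132 to 2079 CPM. It rose with both markers (0.43 on Star, 0.49 on Ptgs2, adjusted p = 0.006 and 0.019). Within the 8 libraries other than replicates 3, 4, 5 and 8 its slopes on Star and Ptgs2 were 0.02 and 0.01. There the slope of Cyp11a1 on Star was 0.83 (adjusted p = 0.61). Hsd3b1 ranged 1.88-fold and had slopes of 0.05 on Star and 0.06 on Ptgs2, each with an adjusted p of 0.77. Of the steroid list, 5 of 12 rose with Star and 1 (Hsd17b1) fell, beside 10.4% and 8.72% of all genes. On Ptgs2 5 of 13 rose and 0 fell, beside 9.67% and 6.76%. On Ereg 4 of 13 rose and 2 (Hsd17b1 and Fdxr) fell, beside 10.9% and 8.05%. With library totals alone 4 rose and 2 fell on Star, beside 512 and 2326 of 11470 genes. On Ptgs2 1 rose and 1 fell on that scale, beside 3.5% and 17.1%. Cyp19a1, aromatase, had a median of only 36.0 CPM, and Akr1c18, which breaks down progesterone, averaged 0.849 CPM. Of 22 genes of cholesterol synthesis and uptake, 10 rose with Star and 7 with Ptgs2, beside 10.4% and 9.67% of all genes. Scaled by library totals alone, 5 and 2 rose, beside 4.46% and 3.5% of all genes.

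On TMM-normalized CPM, 538 of 11497 genes (4.68%) had all of replicates 3, 4, 5 and 8 above the other 8 libraries and 387 (3.37%) had all below. On CPM of the total these were 158 (1.37%) and 1084 (9.43%). List members above on both scales were Areg, Ereg, Ptgs2, Ptger2, Tnfaip6, Vcan, Pgr, Prkg2, Il6, Por, Junb, Ier3, Spry2 and Ywhaz, and those below on both were Foxl2 and Inhbb. These libraries were picked by Ptgs2, so this is a description without a test. They held both the smallest and the largest library total, and 0 of 11497 genes passed in edgeR on the library total (582 with an unadjusted p under 0.05; DESeq2 called 12). Their summed theca and stroma markers were 969.3, 1319, 1583 and 736.6 CPM, and their endothelial markers 77.0, 59.9, 97.6 and 44.1 CPM. In the other libraries but replicate 9 these ran from 973.2 to 2235 and from 49.3 to 165.4 CPM. Replicate 9 had 266.3 and 36.9 CPM. The part of these in the slopes was not tested, and in whole follicles fewer cells of a type and less RNA per cell cannot be told apart.

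Granulosa cell markers were abundant, as the label of an ovarian follicle implies, with a summed level of 17470 to 21270 CPM over 16 genes. Fst, follistatin, averaged 1026 CPM, the gap junction gene Gja1 4346 and Inha 7041. The receptors Fshr and Lhcgr, for follicle-stimulating and luteinizing hormone, were low at medians of 12.9 and 43.4 CPM, and Amh, a marker of small growing follicles, averaged 1.14 CPM. Foxl2, the granulosa cell identity factor, had 19.5 CPM at the lowest (replicate 4), 42.6 at the median and 58.8 at the highest (replicate 12). Its slope on Ptgs2 was -0.66 (adjusted p = 0.0071). Inhbb, the beta-B subunit, ran from 18.3 CPM in replicate 4 over a median of 69.4 to 239.3 in replicate 6, the library of lowest Ereg, and fell with Ptgs2 (slope -1.49, adjusted p = 0.011). Of 15 markers tested on Ptgs2, 1 rose, Inhba (0.52), and 2 fell, Foxl2 and Inhbb, beside 9.67% and 6.76% of all genes. Under library totals 1 rose and 3 fell, beside 3.5% and 17.1% of all genes.

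**Figure D3:**
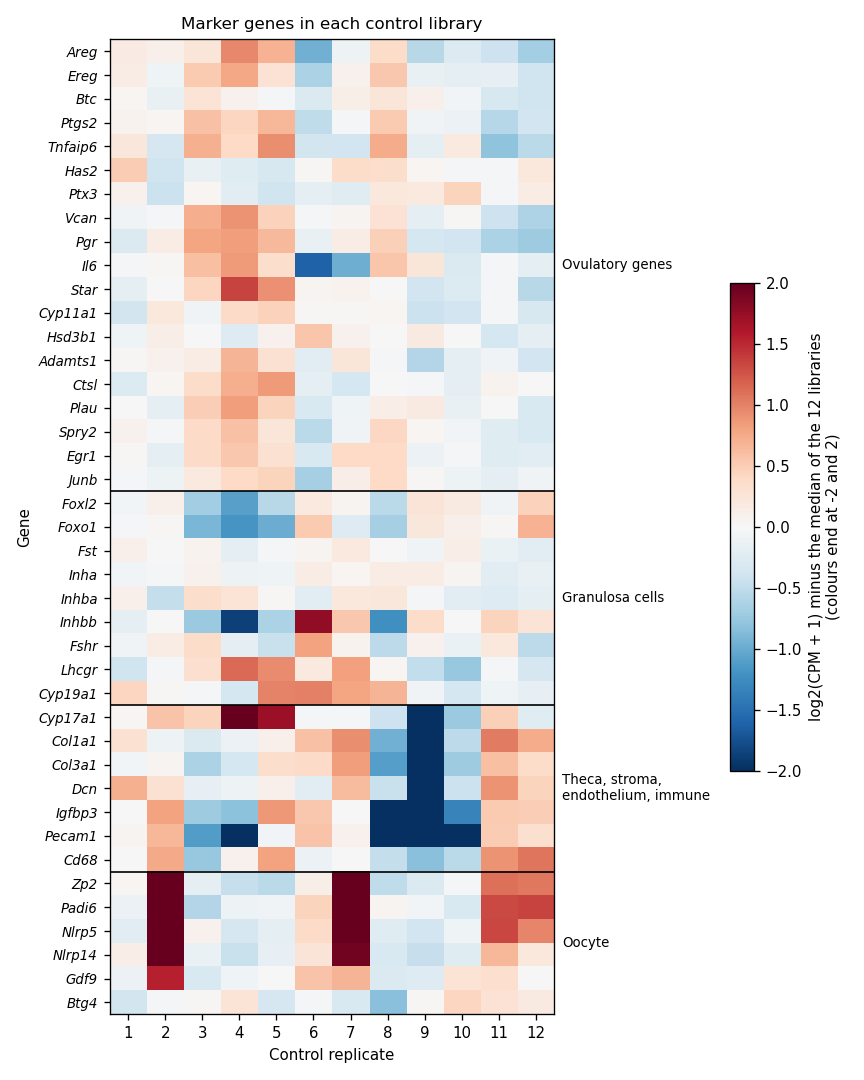
log2(CPM + 1) minus the median of the 12 libraries for 41 genes (rows) in each control replicate (columns); red is above and blue below the median, and colours end at -2 and 2. Replicates 3, 4, 5 and 8 are red in most ovulatory genes, replicate 9 is blue in theca, stroma and vessel genes, and replicates 2 and 7 are red in most oocyte genes.

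Theca and stroma markers varied more between libraries than the ovulatory lists, with a median SD of 0.89 on the log2 scale against at most 0.51. Their summed level was 266.3 CPM in replicate 9, 736.6 in the next lowest library and 2235 in the highest, replicate 7. Replicate 9 was the lowest library for 10 of the 12 tested members, against 10.2% of all genes tested. Col3a1, a collagen of stroma, had 45.4 CPM there, against 247.5 CPM in replicate 8 and 949.8 in replicate 7. Endothelial markers summed to 36.9 CPM in replicate 9, with a median of 105.4 and a maximum of 165.4 in replicate 11. Immune markers summed to 1.53 CPM in replicate 9, 29.5 at the median and 110.8 in replicate 5. The macrophage genes Lyz2 and Adgre1 and the vessel gene Vwf were at 0 in replicate 9, where a count of 0 allows up to 0.219 CPM (3 counts, for counting error only).

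Replicate 9 was not low in the sum of the granulosa markers, at 21270 CPM beside 21230 in replicate 7. Most of that sum was Inha, Inhba and Gja1, at 7809, 6272 and 5362 CPM. Amh, left out by the filter on low counts, was lowest there at 0.146 CPM. Of the 15 markers tested, 0 were lowest in replicate 9. Its Ptgs2 (4698 CPM) and Ereg (1964 CPM) lay near the group medians. Igfbp3, an IGF-binding protein, was 2.05 CPM in replicate 9 and 20.5 in replicate 8, while its median was 124.7 and its highest 228 CPM, in replicate 5.

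Replicates 4 and 5 instead had the most of 2 genes of theca cells, which lie outside the granulosa layer. Cyp17a1, the androgen-making enzyme, had 111.9 and 84.0 CPM there, 1.75 CPM in replicate 9 and between 14.6 and 37.7 in the others. Insl3, a peptide hormone of theca cells, had 50.9 and 79.6 CPM in replicates 4 and 5, and at most 9.36 in the others. The collagens did not follow: Col3a1 was 418.9 and 682.8 CPM in the 2 libraries. Ptch1 and Tagln were lowest in replicate 4, at 40.2 and 8.03 CPM. Of the 12 tested members of the theca and stroma list, 1 (Cyp17a1) had both libraries above all others after TMM normalization. Insl3 was left out by the filter on low counts. Cyp17a1 rose with Star (slope 1.55, adjusted p = 0.0095), and its part in the slopes on Star was not tested. Surface epithelium markers summed to 4.94 to 23.7 CPM over the 5 matched of 7. Krt7 was at most 0.221 CPM and Krt19 at most 4.22, while Krt8, the only member tested, was at 4.58 to 18.5 CPM and fell with Ptgs2 (slope -0.68, adjusted p = 0.04). Its part in the slopes was not tested. The red cell gene Alas2 was at most 3.11 CPM.

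Oocyte RNA was a small part of each library, and replicates 2 and 7 had more of it. The 29 oocyte genes matched of 30 listed summed to 632.6 and 678.8 CPM in replicates 2 and 7, and to between 178.5 and 324.6 in the other 10. On CPM of the total, 15 of the 25 that passed the filter on low counts were higher in both libraries than in any other, and 16 after TMM normalization, against 1.83% of all genes tested. Replicates 2 and 7 were singled out by these genes, so this is a description. Zona pellucida genes, which make the coat of the oocyte, were among them: Zp2 had 59.4 and 84.1 CPM, against a median of 8.41 and a maximum of 20.8 in the others. Padi6, of the cytoplasmic lattices, had 77.2 and 125.6 CPM against a median of 14.5. Nlrp5, a maternal effect gene, had 36.4 and 34.6 CPM against a median of 4.06.

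The excess was smaller or absent in other oocyte genes. Gdf9, the growth factor that oocytes send to granulosa cells, had 61.7 CPM in replicate 2 but 33.3 in replicate 7, against at most 30.9 elsewhere. Its partner Bmp15 had 24.5 and 18.3 CPM, and the others reached 22.0. Btg4, which drives the clearing of maternal mRNA, had 9.36 and 7.67 CPM, under the median of 9.88 of the other 10. Tcl1 (10.97 and 14.4 CPM against a median of 11.1), Bcl2l10 (21.9 and 16.8 against 15.5) and Omt2a (1.13 and 1.95 against 1.41) were within the range of the others, except for Tcl1 in replicate 7 (the others reached 13.4). The ratio of replicate 7 to the median of the others was thus 9.995 for Zp2, 8.64 for Padi6, 1.68 for Gdf9 and 0.776 for Btg4.

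**Figure D4:**
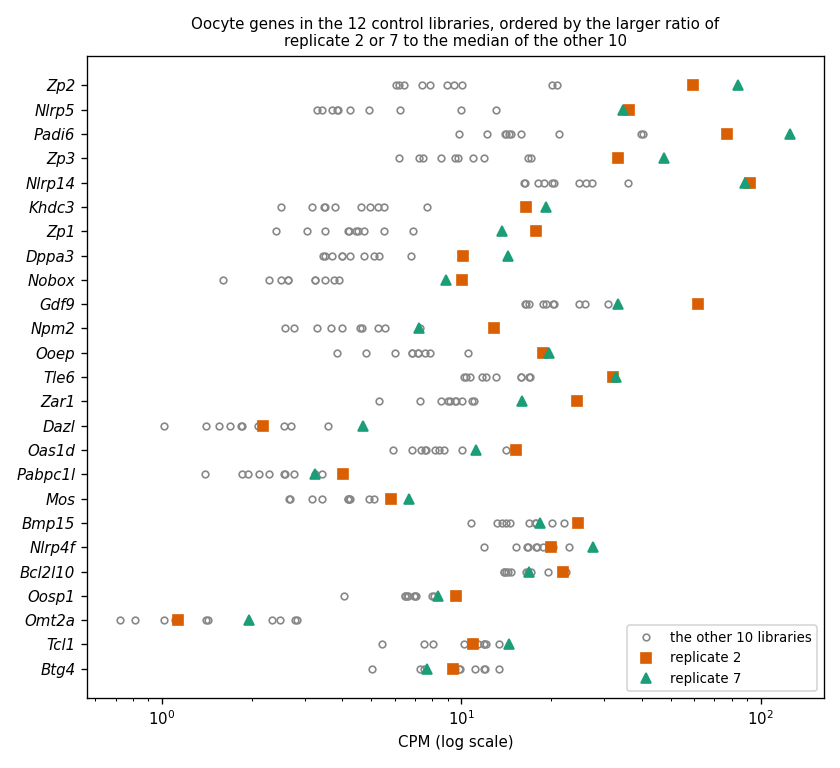
CPM (horizontal, log scale) of the 25 oocyte genes that passed the filter on low counts, ordered by the larger ratio of replicate 2 or 7 to the median of the others; squares are replicate 2, triangles replicate 7 and circles the other 10 libraries. Zp2, Nlrp5 and Padi6 at the top are set apart in both libraries, whereas Btg4 and Tcl1 at the bottom are not.

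Outside the list, Astl, an oocyte protease, had 18.0 and 15.5 CPM in replicates 2 and 7 and at most 5.15 in the others, and Khdc1b had 36.2 and 28.5 CPM against at most 20.3. Both were named after their values were seen. In these 2 libraries Ptgs2 was at 5074 and 4815 CPM, Ereg at 2053 and 2292 and Star at 713.6 and 748, near the group medians. Tnfaip6 was lower, at 901.6 and 879.5 CPM against a median of 1153. Without both libraries the mean of Ptgs2 was 5400 CPM and that of Tnfaip6 1343. Among the other 10 libraries, 0 of 11498 genes passed in edgeR for a slope on the summed oocyte level, 930 had an unadjusted p under 0.05, and DESeq2 called 47.

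Most genes were steady between control libraries. Among the 8650 genes that averaged 10 CPM or more, the median SD of log2(TMM-normalized CPM + 1) was 0.175, 408 genes (4.72%) reached 0.5 and 48 reached 1. The steadiest named genes were the phosphatase subunit Ppp6r1 (SD 0.036, 128.7 to 151.5 CPM), Tmem184b (0.04), Dcaf1 (0.043), Snw1 (0.044), Ap2b1 and Trim35 (0.045 each), and Eif3a, Tax1bp3, Rab2a and Kat7 (0.046 each). The reference gene Ppia had an SD of 0.063 and Actb one of 0.113, while Gapdh, with an SD of 0.248, was above the median.

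The 408 variable genes repeated the library pattern. Replicate 9 was the lowest library in 150 of them (36.8%, against 10.2% of all genes tested). Replicates 4 and 5 were both above the others in 75 (18.4%, against 5.13%), and replicates 2 and 7 in 13 (3.19%, against 1.83%). The most variable named genes were H2-D1 (SD 2.51), Rpl26 (2.02), Vwf (1.91), Insl3 (1.88), Igfbp3 (1.79), Eml5 (1.77), Efemp1 (1.61), Hephl1 (1.56), Lyz2 (1.54), Tagap (1.54), Akr1b7 (1.49), Lrp2 (1.46), Stab1 (1.46), AU021092 (1.42) and Cnmd (1.41). Akr1b7, an aldose reductase of steroid-making tissues, had 8.11 CPM in replicate 9, a median of 85.4 and 371.4 in replicate 5. AU021092 had 2.05 CPM in replicate 9 and 134.8 and 64.9 in replicates 5 and 4. Lrp2, megalin, had 51.7 and 45.0 CPM in replicates 5 and 3 and at most 13.8 elsewhere.

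From under 0.5 CPM in a library to at least 10 CPM in another ran 57 genes (0.601% of those that reached 10 CPM). The highest were Insl3, Lyz2, Rpl26, Hephl1, Stab1, Vwf, the complement gene C3, Col5a3, the macrophage gene Mpeg1 and Igf2. Stab1, a scavenger receptor of vessels and macrophages, had 0.219 CPM in replicate 9, a median of 18.6 and 35.0 in replicate 11. C3 was 0.145 CPM in replicate 8 and 27.4 in replicate 5. Igf2 was 0.251 CPM in replicate 4, with a median of 3.54 and a maximum of 26.1 in replicate 2.

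Some variable genes fell into 2 separate levels with none between. By a rule added after the data were seen (a gap of at least 1.5 on the log2 scale with at least 3 libraries on each side), 11 of 9536 genes that reached 10 CPM (0.115%) did so. H2-D1 (chr17:35262730-35267499), a class I histocompatibility gene, had 159.2, 167 and 201.4 CPM in replicates 1, 7 and 8 and between 2.18 and 3.80 in the other 9. Hephl1 (chr9:15051841-15112108), a copper ferroxidase, split at the same libraries the other way, with at most 1.31 CPM in replicates 1, 7 and 8 and at least 8.87 in the others. Eml5 (chr12:98786805-98901484) had 163.8 to 224.1 CPM in replicates 1, 5, 7, 8 and 9 and 15.5 to 19.3 in the other 7. None of the 3 followed replicates 3, 4, 5 and 8.

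Cnmd, chondromodulin, was at 91.7 to 125.2 CPM in replicates 9, 11 and 12 and at most 22.4 in the others. Efemp1, a matrix protein, was at 60.0 to 86.7 CPM in replicates 2, 3, 9 and 10 and at most 17.0 in the rest. Fndc1 (chr17:7738569-7827302) and Tagap (chr17:7926000-7934897) lie 98.7 kb apart. Fndc1 was at most 1.04 CPM in replicates 1, 2, 5, 7 and 8, and Tagap at most 2.91 CPM in replicates 2, 3, 4, 6 and 10, so their splits shared replicate 2 as low. Vwf was at most 1.12 CPM in replicates 4, 5, 8 and 9 and at least 5.48 in the others. Rpl35a was low in replicates 2, 5, 7 and 9 (7.26 to 10.5 CPM against at least 54.9). Rpl26 and the predicted gene Gm15772 were both high in replicates 2, 3, 5 and 10, and as ribosomal protein genes have near-identical copies, how reads were shared between these is uncertain. H2-D1 belongs to a family of near-identical genes as well, and its level is uncertain for the same reason.

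**Figure D5:**
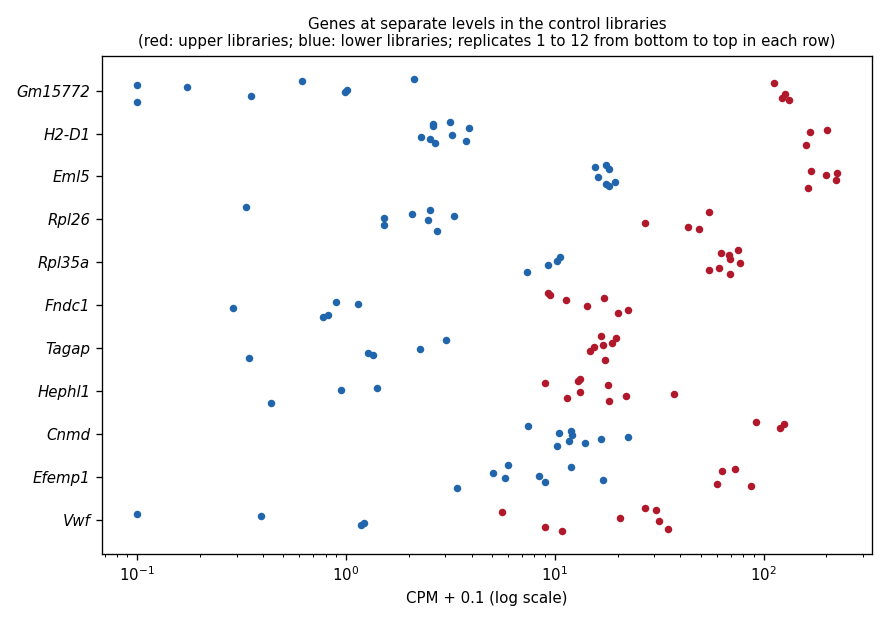
CPM + 0.1 (horizontal, log scale) of the 11 genes at separate levels (rows); red points are the libraries of the upper level and blue those of the lower, with replicates 1 to 12 from bottom to top in each row. H2-D1 and Hephl1 split at the same 3 libraries in opposite directions.

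The ovulatory genes ranked lower in control follicles of the maturation window. In 10 DMSO control libraries of that window, the deposited values behave as TPM (the transcripts-per-million scale) and were scaled on their own. There Ptgs2 had a median of 0.692 TPM and lay at percentile 36.0 of the genes, against percentile 100 per length here. Percentiles there cover the symbols listed once in that window and here the 17842 genes with a length, so the gene sets were separate. Ereg lay at 43.8 against 99.9, Tnfaip6 at 45.3 against 99.9, and Pgr at 29.9 against 97.9. Star lay at 79.0 against 99.1. The receptor Lhcgr and the factor Foxl2 went the other way, from 90.9 to 67.7 and from 99.5 to 78.4. Inha was at percentile 100 in both, and Fshr at 62.1 and 64.7. The tables were normalized separately and no test was made across them.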

How the data were processed

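RNA was isolated with a kit for small inputs, selected on poly-T beads and primed with random hexamers, per the labels' protocols. The submitters' processing notes name Partek, Bowtie2 and HISAT2 without role or version; the build, annotation, counting tool and use of strand are not given in the sources used here. For the ovulation window the authors deposited estimated counts (17.97% of control values were not whole), which were rounded to whole numbers. For the maturation window the authors deposited values that behave as TPM; 1 column that matched no sample was not used. CPM is a count divided by the library total. Merged exon lengths and positions came from GENCODE M21 (GRCm38), matched for 17842 of 18274 symbols (97.6%); 26 symbols turned into dates were not named, and no row lies on the mitochondrial chromosome.

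Slopes were fitted with edgeR 4.0.16 in R 4.3.3 (filterByExpr, TMM, robust quasi-likelihood F test, Benjamini-Hochberg over all genes tested, called at adjusted p under 0.05); DESeq2 1.42.0 was an alternative. SDs used log2(TMM-normalized CPM + 1). On simulated data of 11362 genes with 200 changed with Ptgs2, 42% of slopes of 0.5 and 77.8% of slopes of 1 were recovered, and 5 of 124 calls were false. Genes were drawn independently there, with slopes balanced between directions. The share of false calls therefore may not hold for the fits above, where many genes varied together. The members and lists were chosen with earlier results of these data known. Named genes were the 20 most abundant by counts and per length, list members, the 15 most and 10 least variable genes with a mean of at least 10 CPM, the 5 of smallest p in each direction of each slope fit, and the 10 on-off genes of highest level. The rule for genes at separate levels was added after seeing the data, and alternatives added then were the 8 libraries other than replicates 3, 4, 5 and 8, and library totals without a normalization factor. An upper limit of 3 counts for a listed 0, and all such limits, cover counting error only. Some items are not reported here.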

Additional observations from a re-analysis of the deposited data

How the results depend on the processing

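Counts of called genes moved most with the libraries used. Within the 8 libraries other than replicates 3, 4, 5 and 8 the count was 0 for each of Ptgs2, Ereg, Tnfaip6 and Star, and there the slopes of Star on Tnfaip6 (-0.0829) and of Tnfaip6 on Star (-0.187) changed sign. Without the 2 libraries farthest from the marker's median, 550 genes were called for Ptgs2 (replicates 5 and 3 left out), 83 for Ereg (4 and 3), 0 for Tnfaip6 (5 and 3) and 201 for Star (4 and 5). Leaving out each library in turn gave 1049 to 1902 for Ptgs2, 821 to 2159 for Ereg, 1 to 845 for Tnfaip6 and 782 to 2193 for Star. The Ptgs2 count moved by over 1.5 times without replicate 3 (1077), 4 (1079) or 12 (1049), the Ereg count without 4 (821) or 12 (1422), the Star count without 4 (782) or 12 (1428), and the Tnfaip6 count without 3 (1), 4 (516), 6 (412) or 12 (3). For Tnfaip6, DESeq2 called 1686 and the library total as a covariate gave 1381. On the summed oocyte level DESeq2 called 47 and a fit of all 12 libraries 3; on the library total DESeq2 called 12 and the fit without a filter 1. Genes with an SD of at least 0.5 numbered 1132 with a mean of at least 1 CPM, and on-off genes 153 with a maximum of at least 5 CPM. With library totals alone the counts were 2364, 3071, 567 and 2838, mostly of negative slope. The cause of these moves was not tested. Of 50 named slopes, 30 kept their sign and their side of the threshold in every fit but that of the 8 libraries. In those 8 libraries 48 kept their sign and 0 were called, but the fits that picked the genes include them. No paired analysis was possible because the description covers 1 group.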

Other observations

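Outside the ovulatory response, heat shock genes summed to 3443 CPM at the lowest, 3651 at the median and 4238 at the highest. With Ptgs2 0 of 10 rose or fell, and with Ereg 2 rose, beside 10.9% of all genes. Under library totals 3 of the 10 fell with Ptgs2, beside 17.1% of all genes. Widely used reference genes summed to 4685 to 5187 CPM. After TMM normalization 3 of 12 rose with Ptgs2, beside 9.67% of all genes. With library totals alone 1 rose and 3 fell, beside 3.5% and 17.1% of all genes. Cell division genes ran from 726.9 CPM in replicate 4 over a median of 953.5 to 1372 in replicate 6, and 1 of 25 rose and 1 fell with Ptgs2, beside 9.67% and 6.76% of all genes. Under library totals 1 rose and 4 fell, beside 3.5% and 17.1% of all genes.

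Glycolysis and hypoxia genes summed to 3744 CPM in replicates 3 and 6 and to 5726 in replicate 8, with a median of 4534, and 3 of 14 rose with Ptgs2, beside 9.67% of all genes. The glucose transporter Slc2a1 had a slope of 0.68 (edgeR adjusted p = 0.0011) and ran from 263.3 CPM in replicate 6 to 499.9 in replicate 4. Interferon response genes were low, at 55.6 to 133.9 CPM over 12 genes, and lowest in replicates 3 and 4. Of 6 tested, 2 fell with Ptgs2 and 0 rose, beside 6.76% and 9.67% of all genes. Under library totals 2 fell, beside 17.1% of all genes.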
